A study of Homo sapiens with 6 samples.

Results

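The genes described here are 34 members of homologous recombination and of the Fanconi anaemia pathway, chosen by name from the list BRCA1, BRCA2, PALB2, BARD1, BRIP1, RAD51B, RAD51C, RAD51D, XRCC2 and XRCC3, RAD51AP1, RAD52, RAD54L and RAD54B, the MRE11 complex, ATM, ATR, the FANC genes and the junction nucleases. Each member's value is the sum of the deposited RPKM (reads scaled to transcript length and library depth) over all its Ensembl transcripts. All 34 had a value, among 26409 genes with one, and 33 of them were among the 11884 genes tested, those above 1 RPKM in at least 3 libraries. The samples are SUM1315 cells, an established line from a triple-negative breast cancer, grown for 24 h either at 1% oxygen in an incubator chamber (hypoxia, 3 libraries) or at 21% oxygen (normoxia, 3 libraries). Both groups grew in the same medium with serum, insulin and EGF and at the same carbon dioxide level, and the labels give the genotype of all samples as WT. As background, SUM1315 is known as a BRCA1-mutant line, so a BRCA1 messenger RNA level here is no measure of working BRCA1 protein. The series asked how low oxygen acts on ribosome production; repair genes were measured along with all others.

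Homologous recombination repairs a broken chromosome by copying the sister strand. The MRE11, RAD50 and NBN complex and RBBP8 (CtIP) trim the ends, and BRCA1 with BARD1 and PALB2 brings in BRCA2. BRCA2 with the strand exchange factors prepares the pairing with the sister strand. The joined strands are then taken apart by BLM, or by the nuclease MUS81 with its partner EME1 and the scaffold SLX4. In the Fanconi pathway a core complex of FANC proteins marks FANCD2 and FANCI at a DNA crosslink and so starts its removal. Many of these genes are transcribed mainly in S and G2 phase, and lower expression of some of them under hypoxia has been described in other tumour lines.

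Depth recovered from the smallest steps in the values was 44.0 to 50.6 M reads in the hypoxic and 50.5 to 50.9 M in the normoxic libraries. Across all tested genes, 2901 were lowered and 1478 raised in hypoxia at an adjusted p under 0.05 (limma on log2(RPKM + 1), Benjamini-Hochberg over all tested genes). That split followed the scaling of libraries, with 1422 lowered and 2027 raised genes under median-of-ratios scaling, 1466 and 1977 under upper-quartile scaling, and 4219 and 1176 with libraries rescaled to equal sums. All 8 tested genes of a 10-gene hypoxia check were raised, with a median log2 fold change of 2.23. The cells carried VIM, at 6307 to 7439 RPKM in hypoxia and 4741 to 4901 in normoxia, while 5 breast epithelial markers (EPCAM, CDH1, KRT8, KRT18 and KRT19) summed to 0.0419 to 0.119 and 0.0130 to 0.159 RPKM, so the epithelial markers of the labelled tissue were near 0. The other mesenchymal markers were lower: CDH2 1.80 to 3.41, FN1 1.19 to 1.77 and ZEB1 6.16 to 8.50 RPKM over all libraries. Their log2 fold changes were negative (-0.26, -0.03 and -0.19, none past the threshold), where that of VIM was 0.47. The basal markers KRT5, KRT14, KRT17 and TP63 were at most 0.110 RPKM. Of receptors lacking in triple-negative tumours, ESR1 was at most 0.209 RPKM, PGR had no value and ERBB2 was at 20.2 to 23.7. Of markers of other cell types, PTPRC was at 0 in all hypoxic libraries and at most 0.00826 RPKM in normoxia, and PECAM1, LUM and PDGFRB were under 0.2 RPKM in every library. CD68, a macrophage gene on the same leukocyte list as PTPRC, was at 73.5 to 80.7 RPKM in hypoxia and 45.8 to 48.3 in normoxia (log2 fold change 0.71, adjusted p = 1.1e-05). Separate cultures are not named in the labels, and the p-values therefore rest on the spread of these libraries, which may be technical. All log2 fold changes are of hypoxia over normoxia; because 1 is added to each RPKM value, they come out too small for weakly expressed genes.

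Of the 33 tested members, 14 were lowered (42.4%) and 1, EME1, was raised (3.03%), where 24.4% of all tested genes were lowered and 12.4% raised. The 14 include FANCB, which passed the filter only through its normoxic libraries and so had to differ; without it 13 of 32 members were lowered (40.6%). The median log2 fold change of the members was -0.17, beside -0.08 over all tested genes. The 13 lowered members other than FANCB stood at 65.2% to 85.2% of their normoxic mean, log2 fold changes of -0.48 to -0.22. The hypoxic libraries all lay below the normoxic ones for 19 members (57.6%), or 18 of 32 without FANCB (56.2%), beside 35.6% of all tested genes, and all above for 1, EME1, where 16.4% of all tested genes did so. Summed over all 34 members, RPKM was 357, 341 and 339 in the hypoxic libraries and 389, 386 and 386 in the normoxic ones, with no overlap. With the GC trend taken out of each library, 9 members were lowered, 27.3% of those tested, which is close to the 27.2% of all tested genes lowered in that fit. Leaving out normoxia replicate 1, 2 or 3 left 5, 5 and 6 lowered members (15.2%, 15.2% and 18.2%), beside 14.7%, 13.6% and 12.8% of all genes. With median-of-ratios or upper-quartile scaling 5 members were lowered (15.6%) and 1 raised, beside 12.0% and 12.3% of all genes lowered.

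**Figure D1:**
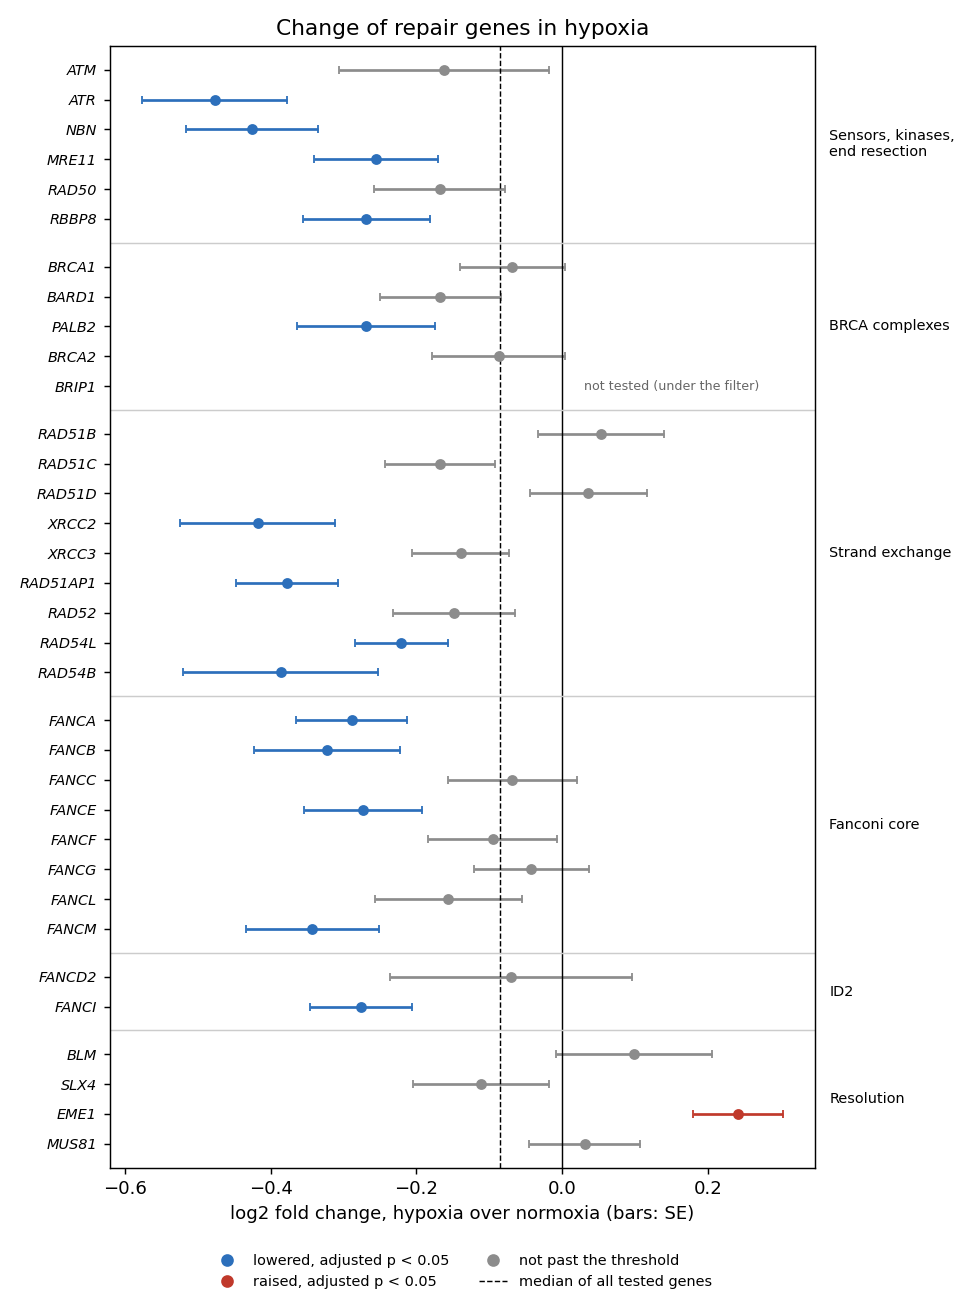
Log2 fold change of each tested member, hypoxia over normoxia (points; bars are SE; 3 libraries per group), grouped by role, with genes past an adjusted p of 0.05 in blue (lowered) or red (raised). The 14 lowered members lie between -0.48 and -0.22, to the left of the median of all tested genes at -0.08, and EME1 lies at 0.24.

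Promoter windows of the members were read for letters that match factors of the cell cycle and of hypoxia, and the 2 windows of lowered members that hold an E2F form are shown. RefSeq windows (GRCh38.p14, 250 bases before to 50 after the gene's start) were matched for 31 members, 11 of them among the 14 lowered. The lowered members NBN, RAD54B and FANCI had no window here. The E2F forms searched were TTTCCCGC, TTTGGCGC, TTTCGCGC and TTTGCCGC on both strands, with capitals marking the match and each sequence written 5′ to 3′ along the gene.
XRCC2, chr7:152676092-152676391, minus strand: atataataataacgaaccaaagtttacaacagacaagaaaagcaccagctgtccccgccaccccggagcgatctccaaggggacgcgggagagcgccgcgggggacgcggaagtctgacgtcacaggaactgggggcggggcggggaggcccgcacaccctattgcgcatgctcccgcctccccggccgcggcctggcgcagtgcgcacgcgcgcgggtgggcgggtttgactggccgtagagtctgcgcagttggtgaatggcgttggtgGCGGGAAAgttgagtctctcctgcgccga
FANCA, chr16:89816598-89816897, minus strand: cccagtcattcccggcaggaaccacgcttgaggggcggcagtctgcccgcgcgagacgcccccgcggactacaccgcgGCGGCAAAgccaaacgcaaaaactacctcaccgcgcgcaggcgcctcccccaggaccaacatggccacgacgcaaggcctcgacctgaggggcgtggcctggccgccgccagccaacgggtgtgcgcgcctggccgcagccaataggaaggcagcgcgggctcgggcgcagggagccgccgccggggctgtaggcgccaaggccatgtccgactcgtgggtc
In XRCC2 the match GCGGGAAA begins 21 bases after the start, and in FANCA the match GCGGCAAA begins 172 bases before it. An E2F form was found for 4 of the 31 members (12.9%), XRCC2, FANCA, FANCC and FANCD2, where 7.04% of tested genes and 3.99% of all genes with a window had one. FANCC and FANCD2 were not past the threshold. Of the other letters searched on both strands, the cell cycle element CHR (TTTGAA or TTCGAA) was found for 3 members (9.68%), against 14.8% of tested genes. The HIF core letters (ACGTG or GCGTG) were found for 24 members (77.4%), against 72.0% of tested genes, and CCAAT for 13 (41.9%), against 43.4%. Among the 11 lowered members with a window, E2F forms were found for 2 (18.2%) and CHR for 0. The HIF core letters were found for 10 of them (90.9%) and CCAAT for 6 (54.5%). Matches of different letters that share bases were each counted. A match is a description of these windows and not a bound site.

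Among the sensors of damage and the factors that trim DNA ends, 4 of 6 members were lowered and none raised. Their median log2 fold change was -0.26. Over all tested genes 24.4% were lowered and 12.4% raised, and the roles hold few genes each. Differences between roles were not tested. ATR, the kinase that answers single-stranded DNA and stalled forks (chromosome 3, 142449235 to 142578826, GRCh38), was at 3.08, 2.42 and 2.83 RPKM in hypoxia, against 4.38, 3.76 and 4.63 in normoxia. The groups did not overlap, and ATR had the lowest log2 fold change of all members, -0.48 (SE 0.10, adjusted p = 0.00475). ATR stayed past the threshold in each of 17 alternative fits, with log2 fold changes of -0.63 to -0.35 and adjusted p of 0.00117 to 0.0496; it was under the filter of the fit limited to genes above 5 RPKM. ATM, the kinase that answers double-strand breaks, was at 3.31, 2.26 and 2.47 RPKM in hypoxia and 2.34, 3.89 and 3.18 in normoxia. Its groups overlapped, and it did not pass the test (log2 fold change -0.16, SE 0.14, adjusted p = 0.396). ATM had 23 transcripts in the table; ATM-204, which retains an intron, held 25.5% of its RPKM in hypoxia and 22.3% in normoxia.

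Messenger RNA of the MRE11 complex fell in part. NBN, its regulatory subunit, was at 5.96, 5.28 and 4.68 RPKM in hypoxia against 7.04, 7.61 and 7.70 in normoxia, 71.2% of the normoxic mean. The log2 fold change of NBN was -0.43 (SE 0.09, adjusted p = 0.00516), and it stayed past the threshold in all 18 alternative fits. MRE11, the nuclease of the complex, was at 9.33, 9.70 and 7.91 RPKM in hypoxia and 10.4, 11.1 and 11.2 in normoxia (log2 fold change -0.26, SE 0.08, adjusted p = 0.0358). RAD50, the ATPase that bridges the ends, was at 20.9, 20.8 and 16.3 RPKM in hypoxia and 21.3, 21.4 and 22.4 in normoxia. All 3 hypoxic libraries were below the normoxic ones, 2 of them by little, and RAD50 did not pass the test (log2 fold change -0.17, adjusted p = 0.159). RBBP8, the partner that starts end trimming, was at 11.1, 10.2 and 8.79 RPKM in hypoxia and 11.6, 12.3 and 12.8 in normoxia (log2 fold change -0.27, SE 0.09, adjusted p = 0.0337). The calls of MRE11 and RBBP8 were lost in 11 and 9 of 18 alternatives, among them each fit without a normoxic library, without hypoxia replicate 3, and with the GC trend removed. MRE11 also lost it with protein-coding transcripts only (adjusted p = 0.0870) and with estimated reads (0.0820). The direction of all 14 lowered members and of EME1 was the same in every alternative in which they were tested.

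**Figure D2:**
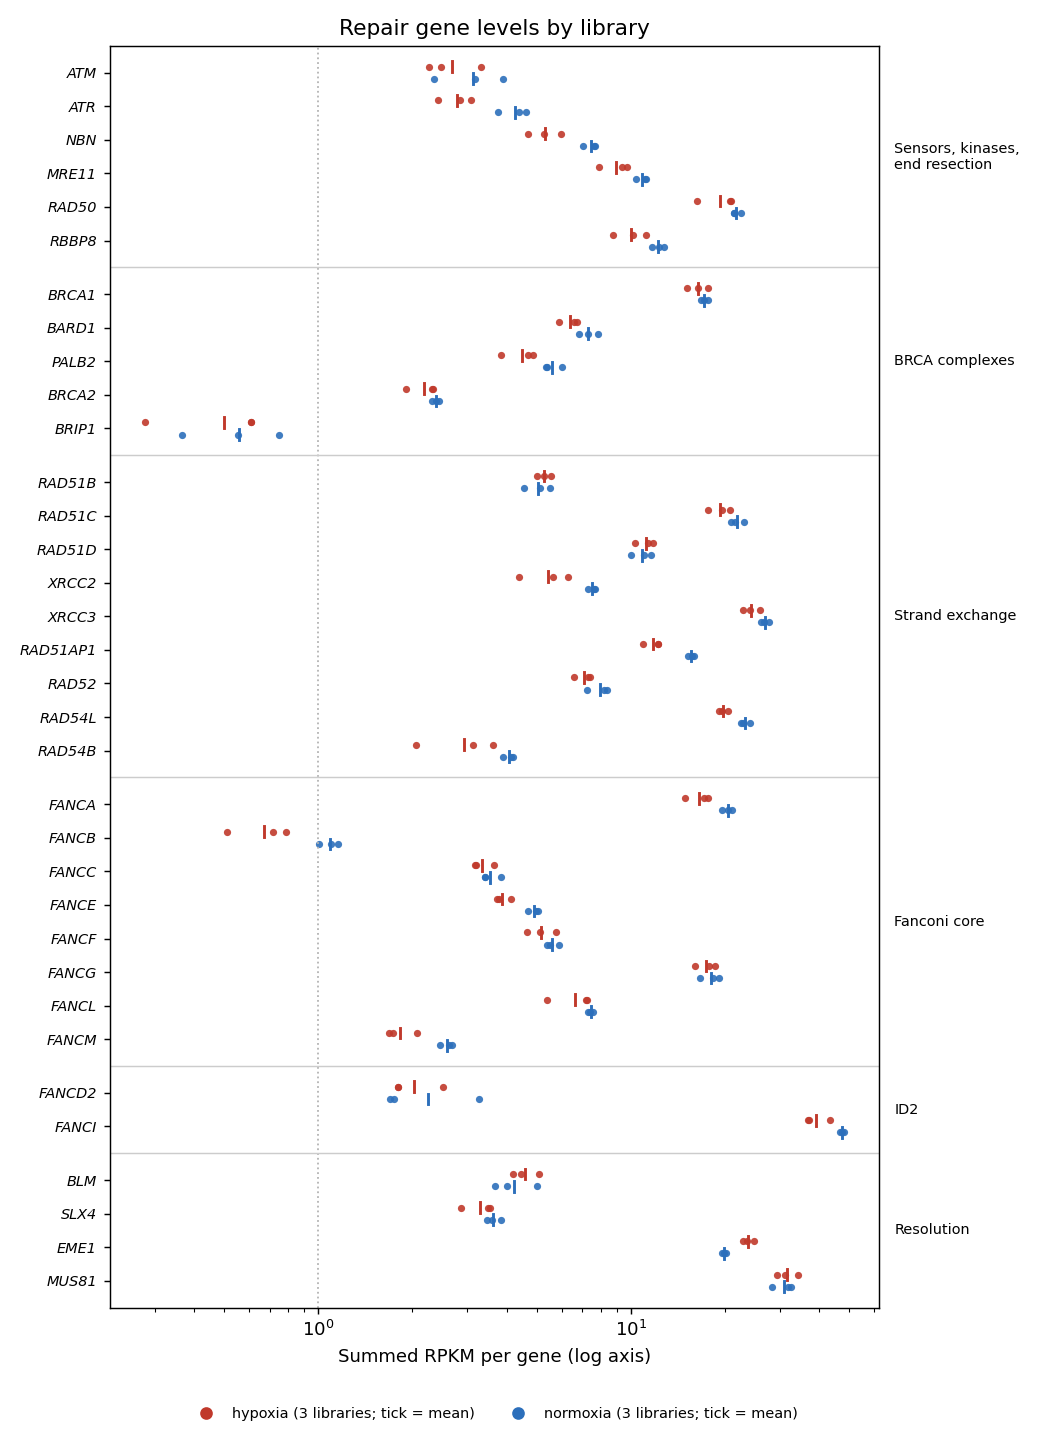
Summed RPKM per gene in each library (log axis; points are the 3 hypoxic libraries in red and the 3 normoxic libraries in blue, ticks are means), grouped by role; the dotted line marks 1 RPKM. FANCI was the highest member in both groups, at 36.8 to 43.3 RPKM in hypoxia and 46.7 to 48.1 in normoxia, and BRIP1 the lowest, under 1 RPKM in every library.

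Of the BRCA complexes, 1 of 4 tested members was lowered, near the 24.4% of all tested genes, with a median log2 fold change of -0.13. BRCA1 was at 17.6, 15.1 and 16.4 RPKM in hypoxia and 17.6, 16.7 and 17.2 in normoxia. These ranges overlapped, the log2 fold change was -0.07 (SE 0.07, adjusted p = 0.473), and its sign turned with the GC trend removed (0.03) and with median-of-ratios or upper-quartile scaling (0.01). The partner of BRCA1 in its ubiquitin ligase, BARD1, was at 6.57, 5.91 and 6.73 RPKM in hypoxia and 7.32, 6.80 and 7.82 in normoxia, without overlap but not past the threshold (log2 fold change -0.17, adjusted p = 0.131). PALB2, which links BRCA1 to BRCA2, was lowered: 4.68, 4.88 and 3.84 RPKM in hypoxia and 5.37, 5.34 and 6.02 in normoxia (log2 fold change -0.27, SE 0.10, adjusted p = 0.0457). That call was the nearest to the threshold of the 14 and was lost in 13 of 18 alternatives, among them 5 of the 6 fits without 1 library. Only leaving out hypoxia replicate 2 kept it among those 6 (adjusted p = 0.0293). BRIP1, a helicase bound by BRCA1, was at 0.608, 0.278 and 0.610 RPKM in hypoxia and 0.555, 0.750 and 0.367 in normoxia, under the filter, and was not tested.

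For BRCA2, which acts at the start of strand exchange, the answer depended on which transcripts were summed. Over all transcripts BRCA2 was at 2.33, 2.31 and 1.91 RPKM in hypoxia and 2.38, 2.43 and 2.30 in normoxia, overlapping ranges that did not pass the test (log2 fold change -0.09, SE 0.09, adjusted p = 0.470). Its long coding transcript BRCA2-201 was at 1.46, 1.06 and 1.05 RPKM in hypoxia and 1.75, 1.64 and 1.44 in normoxia. Protein-coding transcripts held 66.4% of BRCA2 RPKM in hypoxia and 83.0% in normoxia, the rest lying in short transcripts such as BRCA2-203 (495 bases) and BRCA2-205 (523 bases), for which each read counts for more RPKM. With protein-coding transcripts only, BRCA2 was lowered (log2 fold change -0.29, adjusted p = 0.0455), and with reads estimated per gene (limma-voom) it was also lowered (-0.46, adjusted p = 0.0176). With the GC trend removed it was 0.08 (adjusted p = 0.339), and over its 17 alternatives adjusted p ranged from 0.0176 to 0.850.

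Of the 9 genes of strand exchange, 4 were lowered and none raised, beside 24.4% and 12.4% of all tested genes. Their median log2 fold change was -0.17. RAD51B, RAD51C, RAD51D, XRCC2 and XRCC3, which work together in small complexes that aid strand exchange, did not move as one, and differences between them were not tested. XRCC2 was at 5.62, 6.29 and 4.37 RPKM in hypoxia, against 7.67, 7.29 and 7.60 in normoxia. All 3 hypoxic values lay below the normoxic range, for XRCC2 log2 fold change -0.42 (SE 0.11, adjusted p = 0.0118), and the call was lost in 1 of 18 alternatives, the fit with no filter (adjusted p = 0.0982). RAD51C was at 17.6 to 20.8 RPKM in hypoxia and 20.8 to 23.1 in normoxia, apart by a narrow margin (log2 fold change -0.17, adjusted p = 0.0994). It passed the threshold with the length trend removed (adjusted p = 0.0364), with libraries rescaled to equal sums (0.0316) and without hypoxia replicate 2 (0.0428). XRCC3, the partner of RAD51C, was at 22.8 to 26.0 RPKM in hypoxia and 26.0 to 27.7 in normoxia (log2 fold change -0.14, adjusted p = 0.120). XRCC3 has the highest GC content of the members, 62.3%, and passed the threshold with the GC trend removed (log2 fold change -0.28, adjusted p = 0.00209), without hypoxia replicate 3 (adjusted p = 0.0377) and with libraries rescaled to equal sums (adjusted p = 0.0228). RAD51B had 5.00 to 5.56 RPKM in hypoxia and 4.56 to 5.49 in normoxia, and RAD51D 10.3 to 11.8 and 10.0 to 11.6. Both ranges overlapped, and their log2 fold changes of 0.05 and 0.04 turned negative with libraries rescaled to equal sums.

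RAD51AP1, which stimulates the pairing of strands, had the lowest adjusted p of the members. It was at 12.2, 12.2 and 10.9 RPKM in hypoxia, against 15.7, 15.3 and 15.9 in normoxia (log2 fold change -0.38, SE 0.07, adjusted p = 0.00253). No hypoxic library came near the normoxic range, and RAD51AP1 stayed past the threshold in all 18 alternatives (log2 fold changes of -0.44 to -0.21). The DNA translocases RAD54L and RAD54B were both lowered. RAD54L was at 19.1, 19.6 and 20.5 RPKM in hypoxia and 22.5, 24.1 and 22.9 in normoxia (log2 fold change -0.22, SE 0.06, adjusted p = 0.0200), a call lost in 5 alternatives: each fit without a normoxic library, and median-of-ratios and upper-quartile scaling. RAD54B was at 3.13, 3.61 and 2.05 RPKM in hypoxia and 4.12, 3.89 and 4.18 in normoxia (log2 fold change -0.39, SE 0.13, adjusted p = 0.0417). One hypoxic library, replicate 3, carried much of the RAD54B difference: without it the log2 fold change was -0.21 (adjusted p = 0.0873), and 11 of 17 alternatives lost the call. RAD52, the annealing factor, was at 6.55 to 7.39 RPKM in hypoxia and 7.24 to 8.41 in normoxia, overlapping (log2 fold change -0.15, adjusted p = 0.182).

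In the Fanconi core complex, 4 of 8 members were lowered and none raised, beside 24.4% and 12.4% of all tested genes. The median log2 fold change of the 8 was -0.21. Without FANCB 3 of 7 were lowered, with a median of -0.16. FANCA, a core subunit and the one most often mutated in the disease (chromosome 16, 89737549 to 89816657), was at 17.1, 14.9 and 17.6 RPKM in hypoxia and 21.1, 20.5 and 19.6 in normoxia (log2 fold change -0.29, SE 0.08, adjusted p = 0.0136). FANCE, the subunit that binds FANCD2, was at 3.78, 4.13 and 3.72 RPKM in hypoxia and 4.96, 4.68 and 5.03 in normoxia (log2 fold change -0.27, SE 0.08, adjusted p = 0.0228). Neither gene had overlapping groups. FANCM, the DNA translocase that anchors the complex, was at 2.06, 1.68 and 1.73 RPKM in hypoxia and 2.67, 2.44 and 2.62 in normoxia (log2 fold change -0.34, SE 0.09, adjusted p = 0.0143). The calls of FANCA, FANCE and FANCM were each lost in 5 alternatives. FANCA lost its call without normoxia replicate 1 or 2, with no filter, and with median-of-ratios or upper-quartile scaling. FANCE lost it without any 1 normoxic library and with the same pair of scalings. FANCM lost it without normoxia replicate 1 or 3, with no filter, and in both fits with the GC trend removed.

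FANCB, a core subunit encoded on the X chromosome, was weakly expressed: 0.715, 0.510 and 0.788 RPKM in hypoxia and 1.15, 1.10 and 1.01 in normoxia, from 75.0 to 164 estimated reads. It passed the filter only through its normoxic libraries, so that it had to differ between groups, and its value is given as a description (log2 fold change -0.32, SE 0.10, adjusted p = 0.0272). The pseudocount damps this value: with a pseudocount of 0.1 it was -0.64, and with estimated reads -0.68. With the GC trend removed it was -0.16 (adjusted p = 0.312). The other core subunits were not past the threshold. FANCL, the ubiquitin ligase of the complex, was at 7.20, 7.22 and 5.41 RPKM in hypoxia and 7.31, 7.55 and 7.42 in normoxia (log2 fold change -0.16, adjusted p = 0.238). FANCC, FANCF and FANCG had overlapping groups, with log2 fold changes of -0.07, -0.10 and -0.04 and adjusted p of 0.566, 0.416 and 0.696.

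The genes of the 2 proteins that the core complex marks differed in RNA level. FANCI was at 43.3, 36.8 and 37.0 RPKM in hypoxia and 46.7, 48.1 and 47.3 in normoxia (log2 fold change -0.28, SE 0.07, adjusted p = 0.0117). It rested on 5898 estimated reads or more per library and lost its call in 4 alternatives, median-of-ratios scaling (adjusted p = 0.0603), upper-quartile scaling, no filter, and without normoxia replicate 2 (adjusted p = 0.0514). FANCD2 was at 1.80, 2.50 and 1.79 RPKM in hypoxia and 1.75, 1.70 and 3.26 in normoxia. Normoxia replicate 3 was the highest of the 6 FANCD2 values and the other 2 normoxic libraries the lowest, so the groups overlapped (log2 fold change -0.07, SE 0.17, adjusted p = 0.759). The sign turned without that library (0.14, adjusted p = 0.416). FANCD2 has near-identical pseudogene copies, and reads shared with them make its level uncertain.

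Of the 4 members that take joined molecules apart, 1 was raised and none lowered, beside 12.4% and 24.4% of all tested genes. Their median log2 fold change was 0.06. EME1, the regulatory partner of the MUS81 nuclease (chromosome 17, 50373220 to 50381483), was at 24.8, 22.9 and 23.5 RPKM in hypoxia, against 20.2, 19.9 and 19.6 in normoxia. All hypoxic libraries were above all normoxic ones, and the difference passed the test (log2 fold change 0.24, SE 0.06, adjusted p = 0.0121). Its main coding transcript EME1-201 held 72.9% of EME1 RPKM in hypoxia and 75.1% in normoxia, at 17.2, 17.0 and 17.7 against 14.8, 14.7 and 15.4 RPKM. EME1 shares exon bases with LRRC59 on the other strand, and the libraries did not mark strand; LRRC59 itself was lower in hypoxia (338 against 407 RPKM, log2 fold change -0.27, adjusted p = 0.00380), and its part in the EME1 value was not tested. The EME1 call was lost without normoxia replicate 2 or 3 (adjusted p = 0.0533 and 0.0585) and with libraries rescaled to equal sums (0.0527). MUS81, the catalytic partner, was at 29.4 to 34.3 RPKM in hypoxia and 28.3 to 32.6 in normoxia (log2 fold change 0.03, adjusted p = 0.771), and shares exon bases with CFL1 (log2 fold change 0.04, adjusted p = 0.640) and EFEMP2 (0.72, adjusted p = 2.2e-05). BLM, the helicase that dissolves double junctions, was at 4.20 to 5.10 RPKM in hypoxia and 3.67 to 5.00 in normoxia (log2 fold change 0.10, adjusted p = 0.490). Its sign turned with protein-coding transcripts only (-0.10). SLX4, the nuclease scaffold, had overlapping groups (log2 fold change -0.11, adjusted p = 0.363).

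GC content moved with the change, among the members and among all genes. Member transcripts, weighted by expression, had a median GC content of 42.9% (36.2% to 62.3%). Across the 33 tested members, GC content and log2 fold change had a Pearson r of 0.39 and a Spearman rho of 0.47; across all 11884 tested genes these were 0.35 and 0.42, in the same 6 libraries, and genes are not independent replicates. Of the members, 22 fell in the tercile of lowest GC content (45.5% or less), where 35.7% of all tested genes were lowered; 11 of those 22 members, FANCB among them, were lowered. In the middle tercile 1 of 5 members was lowered, beside 25.2% of all genes there, and in the highest tercile 2 of 6, FANCA and FANCE, beside 12.3%. Median log2 fold changes from the lowest to the highest tercile were -0.21, -0.07 and -0.13 for the members and -0.19, -0.08 and 0.03 for all genes. Whether the GC trend comes from the libraries or from the cells was not tested. With the trend removed, ATR (-0.35), NBN (-0.27), XRCC2 (-0.32), RAD51AP1 (-0.21), RAD54L, FANCA, FANCE and FANCI kept their calls and XRCC3 gained one, while MRE11, RBBP8, PALB2, RAD54B, FANCB and FANCM lost theirs.

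**Figure D3:**
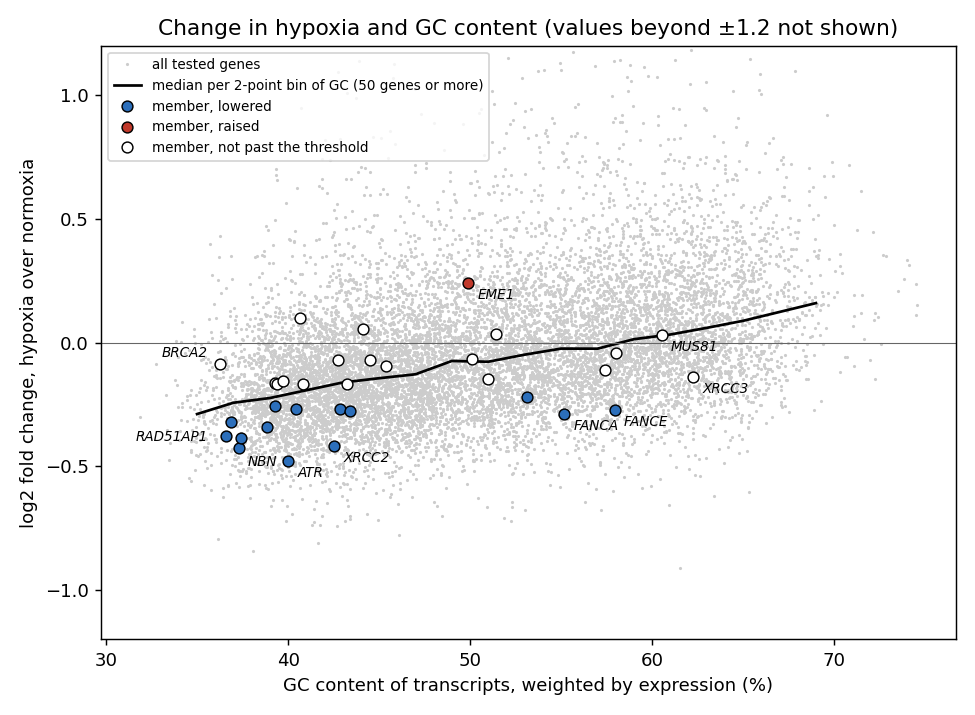
Log2 fold change against expression-weighted GC content for all 11884 tested genes (grey), their median per bin of GC content (line) and the 33 tested members (circles; blue lowered, red raised, white not past the threshold). The line climbs with GC content, and 22 members lie at 45.5% GC or less, where it is lowest.

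The transcripts behind the sums differed between members. In 17 of 34 members protein-coding transcripts held over 90% of the normoxic RPKM, and in RAD50 they held the smaller part, since RAD50-209, annotated as a target of nonsense-mediated decay, had 65.7% of RPKM in hypoxia and 65.5% in normoxia. RBBP8 held transcripts that went opposite ways: the coding RBBP8-201 was at 5.82, 6.05 and 4.22 RPKM in hypoxia and 6.86, 7.05 and 7.44 in normoxia, while the short non-coding RBBP8-214 was at 1.37, 1.33 and 1.43 in hypoxia and 0.742, 0.857 and 0.571 in normoxia. In BRCA1, the transcript BRCA1-203 held 33.1% of RPKM in hypoxia and 39.9% in normoxia. These shares are the authors' estimates of how reads split between transcripts and were not tested. Of the 34 members 12 share exon bases with another gene above 0.5 RPKM. Among the lowered ones these were MRE11 with ANKRD49, RAD54L with LRRC41, FANCA with ZNF276 and FANCI with POLG, and none of these 4 partners passed the threshold itself (adjusted p of 0.298, 0.153, 0.967 and 0.787). Among the other members, FANCL shares bases with VRK2, which was lowered (log2 fold change -0.36, adjusted p = 0.0141).

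Other repair genes came from 4 lists of 69 genes: 20 of 67 tested were lowered (7 in the remaining homologous recombination genes, 3 in the remaining Fanconi genes, 7 in checkpoint and ubiquitin signalling, 3 in end joining) and 3 were raised, with a median log2 fold change of -0.11. These are 29.9% and 4.48%, beside 24.4% and 12.4% of all tested genes. With median-of-ratios scaling, upper-quartile scaling or no filter fewer were lowered, and over the same 67 their share was below that of all genes. The difference between the other repair genes and the 34 members was not tested. The counts of 20 lowered genes and of 3 lowered Fanconi genes include FAN1. FAN1, a Fanconi nuclease, was at 0.694 ± 0.353 RPKM in hypoxia and 1.52 ± 0.215 in normoxia (SD, n = 3 each; log2 fold change -0.59, limma adjusted p = 0.00803), with 2 hypoxic libraries under 1 RPKM, so that it passed the filter through its normoxic ones and is a description. USP1, the enzyme that removes ubiquitin from FANCD2, was at 24.2 ± 3.65 and 30.5 ± 0.978 RPKM (log2 fold change -0.33, limma adjusted p = 0.0199), and FAAP20, a core complex partner, was the raised Fanconi gene (log2 fold change 0.26, limma adjusted p = 0.0292). RMI1, a partner of BLM, and POLQ, the end-joining polymerase, fell with log2 fold changes of -0.35 each (limma adjusted p = 0.0492 and 0.0467). RIF1 and CLSPN, which act in end protection and in the ATR checkpoint, fell with log2 fold changes of -0.43 and -0.40. In classical end joining PRKDC (-0.40) and XRCC5 (-0.34) fell, and POLL (0.27) and NHEJ1 (0.24) rose.

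Of 20 markers of S phase and G2/M, 8 were lowered and none raised, beside 24.4% and 12.4% of all tested genes. Positive log2 fold changes were seen for 4 (MCM5, RRM2, AURKB and PLK1, none past the threshold). The median log2 fold change of the 20 markers was -0.19, with MKI67 (-0.33) and CCNB1 (-0.29) the lowest. Their mean log2 level was 5.51, 5.47 and 5.41 in the hypoxic and 5.63, 5.59 and 5.63 in the normoxic libraries, and that of the 33 tested members was 3.11, 3.07 and 3.02 against 3.23, 3.23 and 3.27. In both measures hypoxia replicate 3 was the lowest library, and it also had the lowest depth (44.0 M reads). The mean log2 level of all tested genes was lower in hypoxia too. It was 3.68, 3.67 and 3.68 in the hypoxic and 3.71, 3.72 and 3.72 in the normoxic libraries, without overlap. Of 20 E2F and DREAM regulators, the factors that time these genes in the cell cycle, 9 were lowered and none raised (median -0.18), LIN52 (-0.55) and E2F6 (-0.45) the most. The part of cell cycle distribution in the repair gene levels was not tested, and in bulk RNA fewer cells in a phase and less RNA per cell cannot be told apart.

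**Figure D4:**
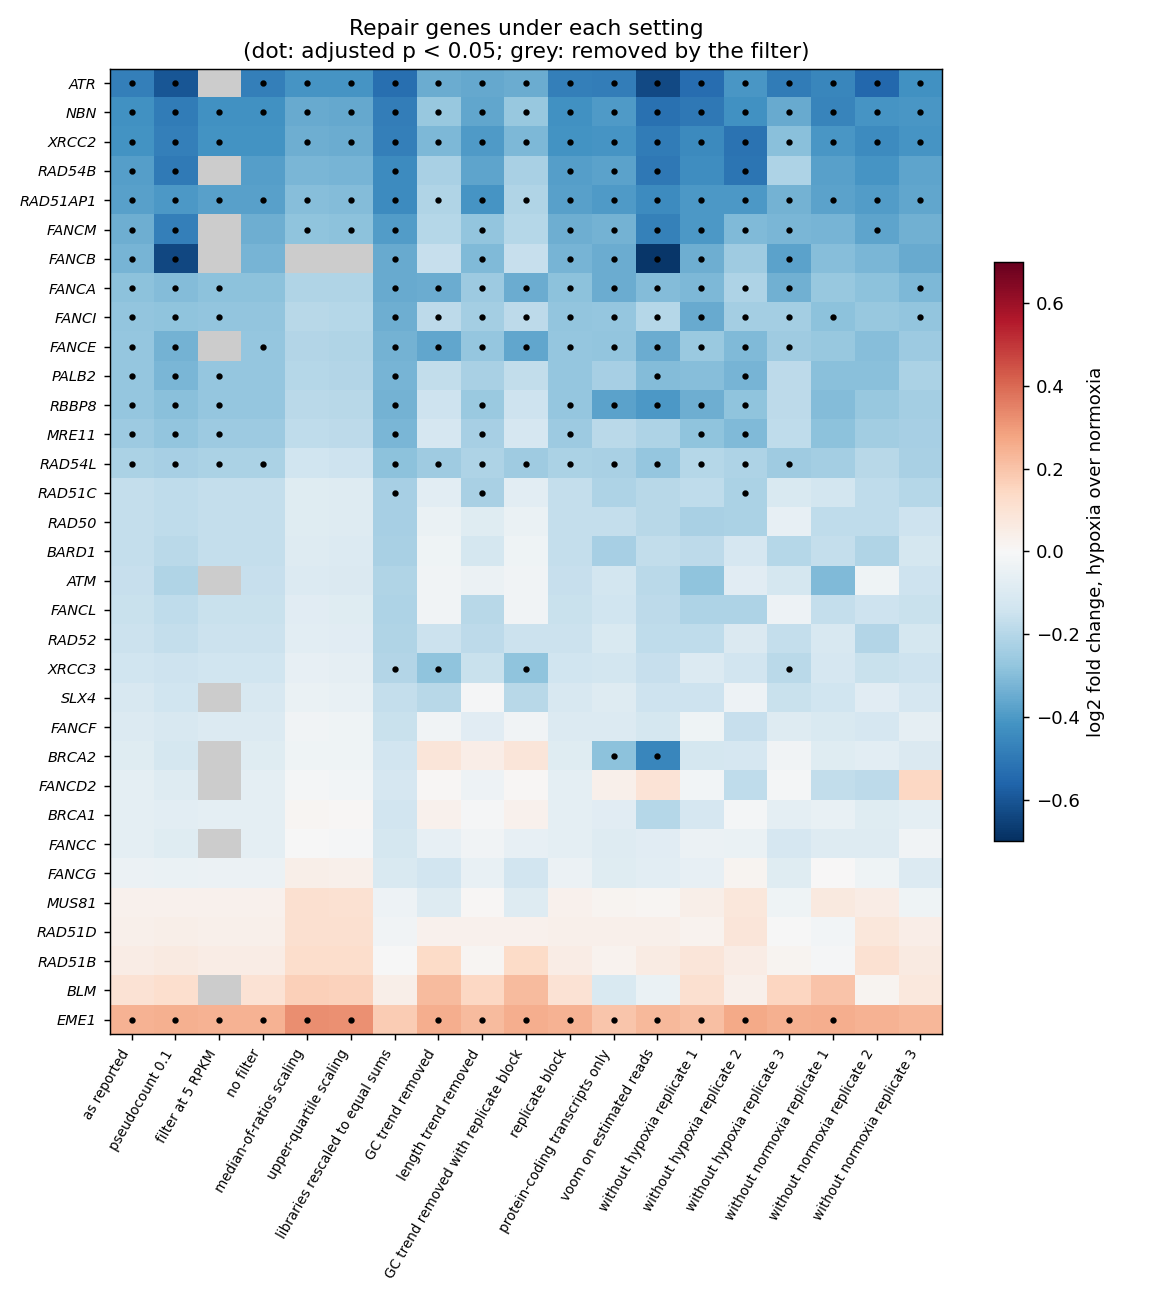
Log2 fold change of each tested member (rows, from the lowest to the highest as reported) under each setting (columns), hypoxia over normoxia, with a dot for an adjusted p under 0.05 and grey where a filter removed the gene. NBN and RAD51AP1 have a dot in all 19 columns and ATR in the 18 in which it was tested, while BRCA1, ATM and RAD50 have none.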

How the data were processed

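RNA sequencing of 6 libraries of SUM1315 cells, 3 in hypoxia and 3 in normoxia, gave 1 deposited table of RPKM per Ensembl transcript (165956 transcripts). The table does not name the unit. The authors' deposited values behave as RPKM: after scaling by length, 79.1% to 80.2% of the low values of single-transcript genes fell within 0.1 of a whole multiple of 1 step per library, and that step gave the depth. Per the submitters' processing notes, the tools were HISAT2, Trimmomatic, Partek and SAMtools, on GRCh38 (hg38). Annotation release and counting settings: not given in the sources used here. Per the labels' protocols, the libraries used a kit that does not mark strand.

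Transcripts were joined by identifier to GENCODE 29 (140004, 84.4%) and RPKM summed per gene; summing weights short transcripts more than reads would. Genes above 1 RPKM in at least 3 libraries were tested with limma 3.58.1 in R 4.3.3 (mean-variance trend, no block) on log2(RPKM + 1), with Benjamini-Hochberg adjustment over all tested genes and a threshold of 0.05. The fit was tested on simulated data whose effects were larger than any log2 fold change of the members and which held no GC trend. It is therefore no check on effects of the members' size. No replicate libraries agreed within counting noise (mean chi-square per gene of 7.01 or more).

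The members and lists were chosen with earlier results of these data known. All members are named; values in every library are given for called members and for BRCA1, BRCA2, PALB2, ATM, ATR, FANCD2, FANCI and FANCA, and of other lists up to 2 raised and 2 lowered called genes are named. Values of BARD1, RAD50, BRIP1 and FANCL in every library, and the transcripts, overlapping genes and marker genes named, were added after their values were seen. Exon overlaps were counted with genes above 0.5 RPKM. GC content and length were weighted by expression, and loess trends (span 0.5) were removed per library. A comparison of member proteins was not run. Python 3.11.15, pandas 2.3.3, scipy 1.17.1 and matplotlib 3.10.9 were used.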

Additional observations from a re-analysis of the deposited data

How the results depend on the processing

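All 14 lowered members and EME1 kept their direction in every alternative in which they were tested, and NBN, RAD51AP1 and ATR also stayed past the threshold. As the groups of these genes did not overlap, direction could turn only in some of the fits. These were the fits with other scaling, a GC or length trend removed, protein-coding transcripts only, or estimated reads. Against 14 members lowered as reported, 9 of 33 were lowered with the GC trend removed (with or without the replicate block). At a filter of 5 RPKM 9 of 22 tested were lowered (40.9%, beside 31.6% of all genes), and no tested member lost its call. PALB2 is counted among these 9, but it passed that filter only through its normoxic libraries and so had to differ. Members lowered were 5 of 32 with median-of-ratios or upper-quartile scaling (15.6%, beside 12.0% and 12.3%), 5 of 34 with no filter (14.7%, beside 5.18%), and 5 to 14 over the fits without 1 library. Members raised were 0 with libraries rescaled to equal sums and 0 to 1 without 1 library. All genes lowered were 1422, 1466 and 1367 with median-of-ratios scaling, upper-quartile scaling and no filter, and 1523 to 2866 without 1 library. Other repair genes lowered were 6, 5 and 2 in the same 3 settings, beside 12.0%, 12.3% and 5.18% of all genes. Set over the 67 tested as reported, these counts are smaller shares than those of all genes. Without 1 library 5 to 17 were lowered, beside 12.8% to 24.1% of all genes. Other repair genes raised were 5 with upper-quartile scaling, 1 with no filter or equal sums, and 0 to 4 without 1 library. The median log2 fold change of the members was -0.086 with median-of-ratios and -0.092 with upper-quartile scaling, -0.23 with equal sums, and -0.22 to -0.15 without 1 library. Among members never past the threshold, the sign turned for BRCA1 (0.030), FANCD2 (0.0078) and MUS81 (-0.091) with the GC trend removed, with or without the replicate block. BRCA2, which passed it only with coding transcripts or estimated reads, turned to 0.084 there and to 0.045 with the length trend removed. The sign turned for BRCA1 and FANCG under median-of-ratios (0.012 and 0.039) and upper-quartile scaling (0.0070 and 0.034), and for RAD51B (-0.0041), RAD51D (-0.027) and MUS81 (-0.036) with equal sums. With coding transcripts only it turned for FANCD2 (0.036) and BLM (-0.10), and with estimated reads for FANCD2 (0.093) and BLM (-0.045). Without 1 library, ranges crossed 0 for FANCG (-0.097 to 0.017), RAD51D (-0.017 to 0.086), RAD51B (-0.0072 to 0.10), MUS81 (-0.028 to 0.080) and FANCD2 (-0.18 to 0.14). The causes were not tested. Fits without a library test the same genes with fewer samples.

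Same-numbered libraries had correlations of deviations of 0.0901, 0.0301 and -0.227, and not every sample correlated best with its own number. No pairing by replicate number showed in these values, but 3 libraries per group are too few to exclude it. With the replicate block 13 members were lowered, PALB2 losing its call (adjusted p = 0.0636). At these depths 1 read in a 2 kb transcript was 0.00982 to 0.0114 RPKM, which limits BRIP1 and FANCB most.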
